A study of Mus musculus with 311 samples.

Results

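The transcripts described here are those of the membrane transporters that carry organic ions, bile acids, monocarboxylates and fatty acids across liver cells: the families Slc22a, Slco, Slc10a, Slc16a, Slc17a and Slc27a. Members were chosen by gene symbol alone, from symbols starting with one of these names or with Slc47a and leaving out Slc22a26, and each gene was read from its 1 probe with fewest missing values, provided that the probe was measured on at least 95% of arrays. This gave 49 of 11387 measured genes: 17 of Slc22a, 13 of Slco, 9 of Slc16a, 4 of Slc10a, 3 of Slc17a, 3 of Slc27a and 0 of Slc47a. Of 51 symbols with a probe, Slc22a18 (292 arrays, 93.9%) and Slc17a3 (287 arrays, 92.3%) lay just outside the limit, while Slc16a3 (301 arrays, 96.8%) was the member closest to it.

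Liver total RNA of 311 F2 mice was measured, 1 array per animal. The cross was between C57BL/6J and C3H/HeJ, and the mice were of both sexes. All were ApoE null and ate a Western diet between 8 and 24 weeks of age. RNA of the animal was labelled with Cy3 and a pool of RNA from the study's animals with Cy5, so each value is a log10 ratio of animal over pool and no array is a control. The labels give neither sex, genotype nor phenotype for an animal. Arrays were therefore separated at -0.5 on a probe of Eif2s3y, a Y-linked gene, where no array lay between -0.875 and -0.219. This left 155 Eif2s3y-high arrays (median 0.358) and 156 Eif2s3y-low arrays (median -1.46), each analysed on its own. The separation rests on a measured transcript, so levels in these 2 sets stand side by side without a test.

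A log10 ratio gives no absolute level. Members could not be ranked by abundance, and whether liver markers were present could not be read from ratios to a liver pool. In whole liver, fewer cells of a type and less RNA per cell cannot be told apart. The median of an array was -0.0218 to 0.0172 and its SD 0.0658 to 0.206, 0.745% of values were missing, and 131 of 48205 pairs of arrays had r under -0.3, with the direction kept because the labels name the dyes. Pancreas, skeletal muscle, T cell and kidney marker scores reached r of 0.3 or more in size with 0, 0, 1 and 0 members in Eif2s3y-high arrays, against 0.905%, 0.808%, 2.6% and 1.9% of all genes. In Eif2s3y-low arrays these counts were 0, 0, 0 and 1, against 1.12%, 1.34%, 3.73% and 2.51%. The measured kidney genes had a mean r among themselves of 0.00340 and -0.0566 in Eif2s3y-high and Eif2s3y-low arrays, against 0.972 and 0.974 for pancreas. The kidney genes thus shared no common signal, and their score cannot show whether kidney RNA was present.

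Hepatocytes take up bile acids from portal blood through Slc10a1, the sodium-dependent cotransporter, and through sodium-independent carriers of the Slco family. The cells conjugate bile acids after activation by Slc27a5, a bile acyl-CoA synthetase of the fatty acid transport protein family, and export them at the canaliculus through Abcb11. Slc22a proteins carry organic anions, organic cations and carnitine, Slc16a proteins carry lactate, pyruvate and ketone bodies, and Slc17a proteins carry phosphate, urate or glutamate. Several Slco and Slc22a genes lie in tandem clusters on mouse chromosomes 6 and 19.

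Promoters are shown for 5 members that lead the results below: Slco1a1, the widest-ranging member without values at the limits of the scale; Slc22a30 and Slco1b2, which followed it or each other; and Slc22a27 with its cluster neighbour Slc22a29, which followed each other closely in Eif2s3y-low arrays. Each runs from 250 bases before to 50 bases after the start of the gene, 5′ to 3′ on the strand of the gene, from RefSeq with build GRCm38.p6. The positions are chr6:141946913-141947212 on the minus strand for Slco1a1, chr19:8405056-8405355 on the minus strand for Slc22a30, chr6:141629268-141629567 on the plus strand for Slco1b2, chr19:7965978-7966277 on the minus strand for Slc22a27 and chr19:8218851-8219150 on the minus strand for Slc22a29. Capitals mark 2 motifs searched on both strands, GTTAAT, the core of the site of the liver factor HNF1, and TTCNNNGAA, the core of the STAT site.
Slco1a1: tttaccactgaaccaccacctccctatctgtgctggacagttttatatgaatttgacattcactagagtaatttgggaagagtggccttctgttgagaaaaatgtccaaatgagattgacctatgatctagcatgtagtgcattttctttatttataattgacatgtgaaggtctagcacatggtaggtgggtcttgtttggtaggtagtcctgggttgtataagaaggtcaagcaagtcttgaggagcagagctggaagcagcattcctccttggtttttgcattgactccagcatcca
Slc22a30: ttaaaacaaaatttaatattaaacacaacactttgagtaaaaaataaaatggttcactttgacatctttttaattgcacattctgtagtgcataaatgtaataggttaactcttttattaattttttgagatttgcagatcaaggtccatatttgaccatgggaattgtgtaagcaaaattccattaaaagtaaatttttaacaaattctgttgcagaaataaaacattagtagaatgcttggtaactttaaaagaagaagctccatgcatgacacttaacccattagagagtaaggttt
Slco1b2: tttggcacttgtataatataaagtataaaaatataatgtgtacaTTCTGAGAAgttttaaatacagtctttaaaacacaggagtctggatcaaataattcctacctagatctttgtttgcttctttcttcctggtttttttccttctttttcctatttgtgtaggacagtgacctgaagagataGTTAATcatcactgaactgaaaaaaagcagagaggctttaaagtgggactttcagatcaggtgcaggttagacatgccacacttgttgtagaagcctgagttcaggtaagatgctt
Slc22a27: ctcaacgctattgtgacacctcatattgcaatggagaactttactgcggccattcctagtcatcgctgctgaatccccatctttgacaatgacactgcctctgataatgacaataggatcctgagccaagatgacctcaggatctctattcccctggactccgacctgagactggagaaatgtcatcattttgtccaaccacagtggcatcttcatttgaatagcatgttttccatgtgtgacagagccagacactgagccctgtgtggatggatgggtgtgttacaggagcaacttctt
Slc22a29: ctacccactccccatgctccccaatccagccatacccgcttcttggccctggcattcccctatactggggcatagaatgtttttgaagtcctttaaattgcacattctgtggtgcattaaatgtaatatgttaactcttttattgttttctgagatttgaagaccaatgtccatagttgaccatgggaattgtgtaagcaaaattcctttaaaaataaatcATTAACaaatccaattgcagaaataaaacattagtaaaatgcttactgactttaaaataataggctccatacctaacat

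GTTAAT was found in 7.10% of the 32851 promoters of the table and TTCNNNGAA in 8.30%. Promoters were listed for 41 of the 49 members, of which 5 held GTTAAT and 6 held TTCNNNGAA in at least 1 promoter. Counted by promoter, as those shares are, 5 of the 52 promoters of members held GTTAAT and 7 held TTCNNNGAA. Slco1b2 held GTTAAT from position -66 relative to its start and TTCNNNGAA from position -206. Slc22a29 held GTTAAT on the other strand, from position -29. Slco1a1, Slc22a30 and Slc22a27 held neither within these 300 bases. Slco1a1 and Slc22a30 were the most strongly correlated pair of members in Eif2s3y-high arrays. In global alignments with gaps, Slc22a30 and Slc22a29 shared 216 identical bases (72.0% of 300), Slc22a27 and Slc22a29 shared 156 (52.0%), and Slco1a1 and Slc22a30 shared 158 (52.7%).

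How far the transporters differed from animal to animal was asked first. Among members whose values stayed within the limits of the scale, the uptake carrier Slco1a1 had the widest spread in both sets of arrays. The anion transporter Slc22a27 came next in Eif2s3y-high arrays and Slco1a5 (2.76 times the median SD of all genes) in Eif2s3y-low arrays. The SD of Slco1a5 there rested in part on 2 arrays that lay 10-fold or more from its median. Spread is given as the SD of a gene over animals divided by the median SD of all 11387 genes in the same arrays (0.0651 in Eif2s3y-high and 0.0621 in Eif2s3y-low arrays, on the log10 scale). The median member stood at 1.33 times the median SD in Eif2s3y-high arrays and at 1.14 times in Eif2s3y-low arrays, with 36 and 31 of 49 members above the median of all genes. In Eif2s3y-high arrays 3 members reached 3 times the median SD, against 3.8% of all genes. In Eif2s3y-low arrays 2 members did, against 3.96% of all genes.

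**Figure D1:**
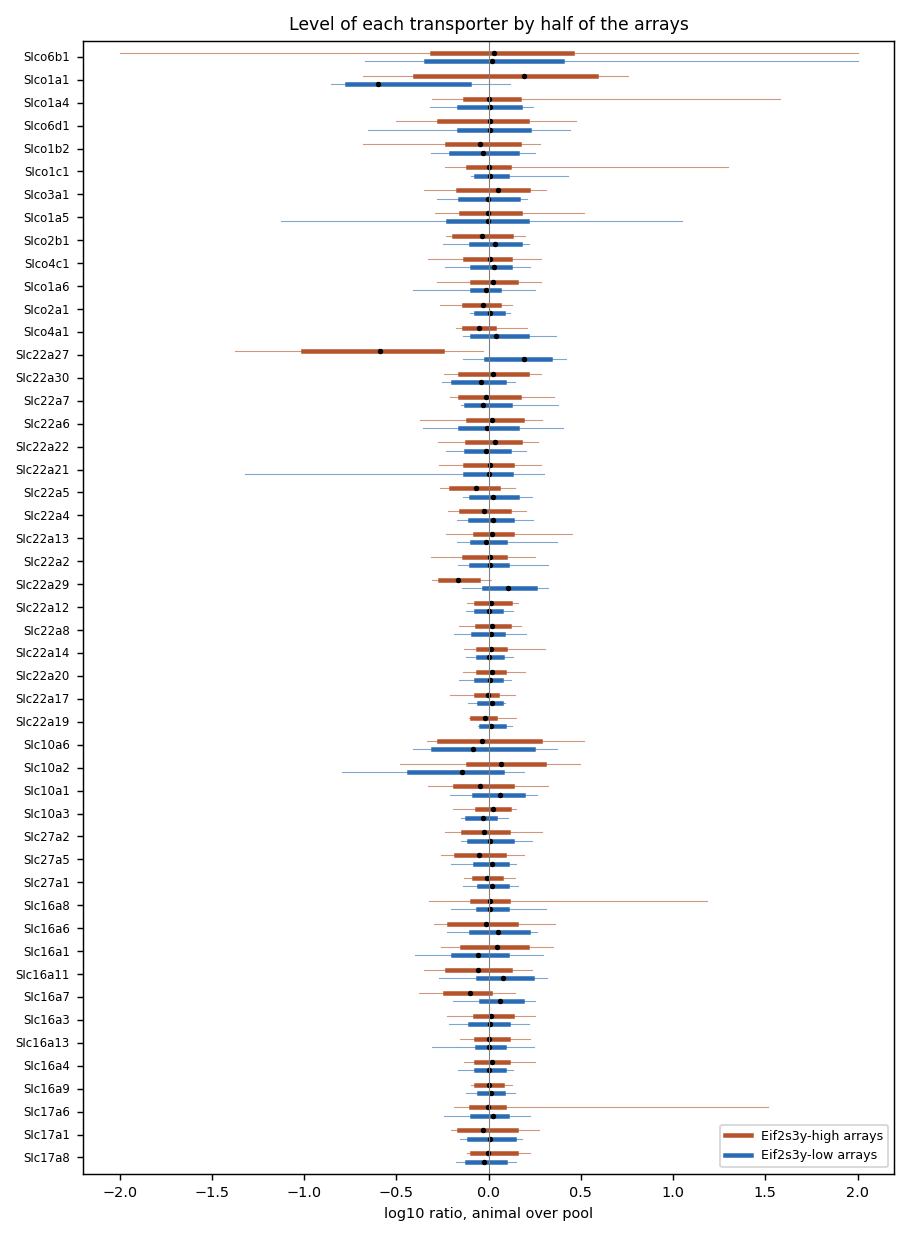
Log10 ratio of animal over pool (horizontal axis) for the 49 members (rows, by family and falling spread). Thick bars run from the 5th to the 95th percentile, thin lines from the lowest to the highest array and points mark medians, with Eif2s3y-high arrays above Eif2s3y-low arrays in each row. Slco1a1 has medians of 0.194 and -0.599 and Slc22a27 of -0.588 and 0.190 in these arrays.

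Slco1a1, an organic anion carrier for bile acids and steroid conjugates, ran from -0.679 through a median of 0.194 to 0.754 in the 155 Eif2s3y-high arrays. In the 156 Eif2s3y-low arrays it ran from -0.854 through -0.599 to 0.114. Of the Eif2s3y-high arrays 89 lay above every Eif2s3y-low array, and the 2 ranges overlapped. From the 5th to the 95th percentile Slco1a1 spanned 9.52-fold in Eif2s3y-high and 4.63-fold in Eif2s3y-low arrays. Its SD was 4.86 times the median (95% interval from resampled arrays 4.43 to 5.39) in Eif2s3y-high arrays and 3.16 times (2.71 to 3.68) in Eif2s3y-low arrays. Its skewness was -0.463 in Eif2s3y-high arrays, with a tail toward low values, and 1.37 in Eif2s3y-low arrays, with a tail toward high ones.

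Slc22a27, a rodent member of the organic anion transporter branch, ran from -1.38 through -0.588 to -0.0287 in Eif2s3y-high arrays. In Eif2s3y-low arrays it ran from -0.140 through 0.190 to 0.421, and 149 of these arrays lay above every Eif2s3y-high array. Its SD was 3.84 times the median (3.43 to 4.32) in Eif2s3y-high arrays, a span of 5.66-fold, and 1.75 times (1.57 to 1.94) in Eif2s3y-low arrays, a span of 2.21-fold. The next gene but one in the cluster, Slc22a29, had the same order of medians, -0.166 in Eif2s3y-high and 0.107 in Eif2s3y-low arrays, with 135 of the Eif2s3y-low arrays above every Eif2s3y-high array. Its SD was 1.02 and 1.34 times the median, at the 51.9th and 73.4th percentile of all genes.

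Slco6b1, a family member known from rat and human testis, had the largest multiples, 5.68 (3.98 to 7.42) in Eif2s3y-high and 5.81 (3.96 to 7.39) in Eif2s3y-low arrays. These rested on few arrays: 1 value at -2 and 1 at 2 in Eif2s3y-high arrays and 2 values at 2 in Eif2s3y-low arrays lay at the limits of the scale, and 5 arrays in each lay 10-fold or more from the median. By the median absolute deviation, which such arrays hardly move, Slco6b1 stood at 2.40 and 3.30 times the median gene, against 5.64 and 2.64 for Slco1a1 and 4.67 and 1.81 for Slc22a27. Single arrays also set the SD of other members. Slc17a6, the vesicular glutamate transporter of excitatory neurons, and Slco1a4, a carrier of digoxin and bile acids, reached 1.51 and 1.58 on the same Eif2s3y-high array, F2 number 11, and without its farthest array each SD multiple was 0.921 and 1.74 in place of 2.08 and 2.61. The same held for Slc16a8 (1.76, and 0.968 without its farthest array) and Slco1c1 (1.93 and 1.08) in Eif2s3y-high arrays. In Eif2s3y-low arrays it held for Slc22a21 (2.17 and 1.33). Slco1a5 there stood at 2.76, and at 2.35 without its farthest array. By the median absolute deviation it stood at 1.47 times the median gene, against 2.95 for Slc10a6 and 2.66 for Slc10a2.

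**Figure D2:**
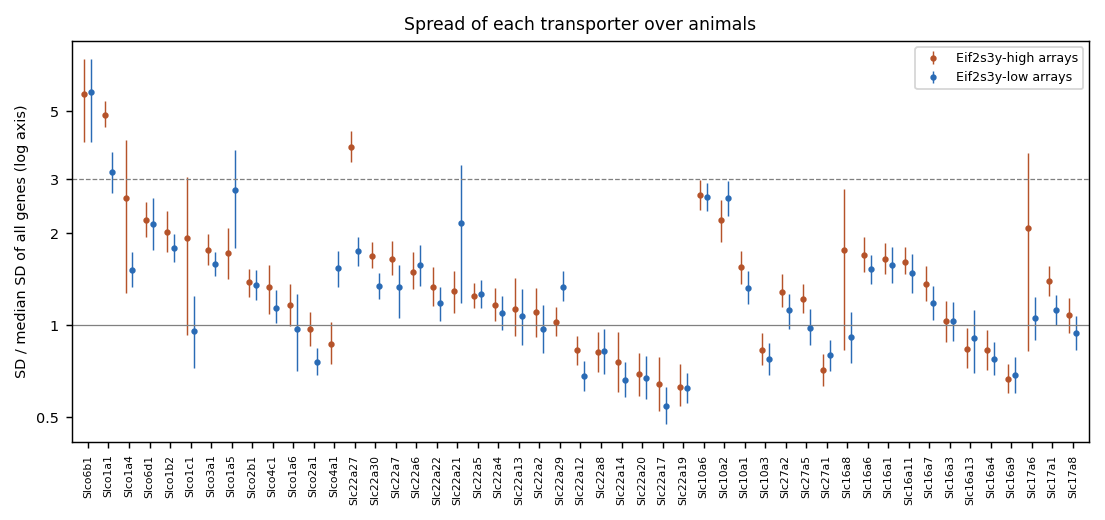
SD of each member over animals divided by the median SD of all genes (vertical log axis), with 95% intervals from resampled arrays, for 155 Eif2s3y-high (left point) and 156 Eif2s3y-low arrays (right point). The dashed line marks 3 times the median; Slco6b1 and Slco1a1 lie above it in both sets and Slc22a27 in Eif2s3y-high arrays.

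Among the bile acid carriers of Slc10a, Slc10a6 and Slc10a2 had the widest spread, ahead of the hepatocyte carrier Slc10a1. Slc10a6, which takes up sulfated steroids, ran from -0.335 through -0.0337 to 0.520 in Eif2s3y-high arrays and from -0.411 through -0.0856 to 0.372 in Eif2s3y-low arrays. It spanned 3.51-fold and 3.50-fold, and its SD was 2.66 and 2.63 times the median. Slc10a2, the sodium-dependent carrier of ileum and bile duct cells, ran from -0.480 through 0.0649 to 0.498 in Eif2s3y-high arrays and from -0.797 through -0.142 to 0.192 in Eif2s3y-low arrays. Its SD was 2.20 and 2.60 times the median, and 148 of the Eif2s3y-high arrays lay above the median of the Eif2s3y-low arrays. Slc10a1 itself spanned 2.05-fold in Eif2s3y-high arrays, at 1.55 times the median SD, and stood at 1.33 times in Eif2s3y-low arrays. Slc10a3, an orphan member, stood at 0.831 and 0.778 times.

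By family the median multiples were highest in Slc10a (1.88 in Eif2s3y-high and 1.96 in Eif2s3y-low arrays) and Slco (1.77 and 1.54). They were 1.40 and 1.05 in Slc17a, 1.36 and 1.03 in Slc16a, 1.22 and 0.981 in Slc27a, and 1.13 and 1.09 in Slc22a. After Slc22a27, the widest Slc22a members in Eif2s3y-high arrays were Slc22a30 (1.69 times) and Slc22a7 (1.64 times), a transporter of organic anions at the sinusoidal membrane. The narrowest members were Slc22a17, a lipocalin receptor, at 0.642 and 0.546 times, and Slc22a19 at 0.629 and 0.623 times. In Slc16a the widest members apart from Slc16a8 were Slc16a6, a ketone body exporter in zebrafish (1.70 and 1.53 times), the lactate and pyruvate carrier Slc16a1 (1.64 and 1.57) and, in Eif2s3y-high arrays, Slc16a11 (1.61). Slc17a1, a phosphate and urate carrier, stood at 1.40 and 1.12 times.

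Whether a member fell into separate levels, as a single locus segregating in an F2 cross can produce, was examined by comparing mixtures of 2 or 3 normal distributions with a normal, a Student t and a skew normal distribution. No member was called as a mixture: 0 of 49 in Eif2s3y-high arrays, against 0.755% of all genes, and 0 of 49 in Eif2s3y-low arrays, against 0.843%. The rule can miss levels that lie close together for their spread, so these counts do not show that separate levels are absent. The Bayesian information criterion had to favour a mixture by 10, with at least 0.1 of the arrays in its smaller part. Slco1a1 came to 0.923 in Eif2s3y-high arrays and to 1.71 in Eif2s3y-low arrays, where the smaller part held a weight of 0.124. The highest margin, 3.65 for Slc22a21 in Eif2s3y-low arrays, rested on 1 array. The best single distribution was normal for 19, Student t for 24 and skew normal for 6 members in Eif2s3y-high arrays, and for 24, 17 and 8 in Eif2s3y-low arrays.

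Which transporters moved together was asked next, as Pearson correlation over animals within each set of arrays. Mean correlations within families lay near 0 except for Slc27a in Eif2s3y-high arrays. That mean came mainly from 1 of its 3 pairs, Slc27a2 with Slc27a5 at 0.607, and the median of the 3 was 0.0571. The mean r over pairs of a family was 0.0663 in Eif2s3y-high and 0.0459 in Eif2s3y-low arrays for Slc22a, 0.00155 and -0.00850 for Slco, -0.0654 and -0.0185 for Slc10a, 0.0463 and 0.0397 for Slc16a, 0.0961 and 0.00638 for Slc17a, and 0.222 and 0.0762 for Slc27a. Over all pairs of genes the mean was 0.00184 and 0.00160. Of the 262 pairs within a family 24 (9.16%) reached r of 0.3 in Eif2s3y-high arrays and 5 (1.91%) in Eif2s3y-low arrays. Over all pairs of genes these shares were 4.78% and 4.56%.

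Over all 1176 pairs of members 90 (7.65%) reached r of 0.3 in Eif2s3y-high arrays, against 4.78% of all gene pairs, and 55 (4.68%) reached -0.3, against 3.85%. In Eif2s3y-low arrays 26 pairs (2.21%) reached 0.3, against 4.56%, and 18 (1.53%) reached -0.3, against 3.56%. The 16 pairs at 0.3 or more in both sets are 17.8% of the positive pairs of Eif2s3y-high arrays and 61.5% of those of Eif2s3y-low arrays. A further 12 pairs stood at -0.3 or less in both, and 0 pairs had opposite signs past these limits. The overlap between the sets over all pairs of genes was not counted. These overlaps are therefore not shown to be particular to the transporters. The difference between the 2 sets of arrays was not tested. Pairs named in the next paragraphs for the size of their r are a description, and every array shares the pool.

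**Figure D3:**
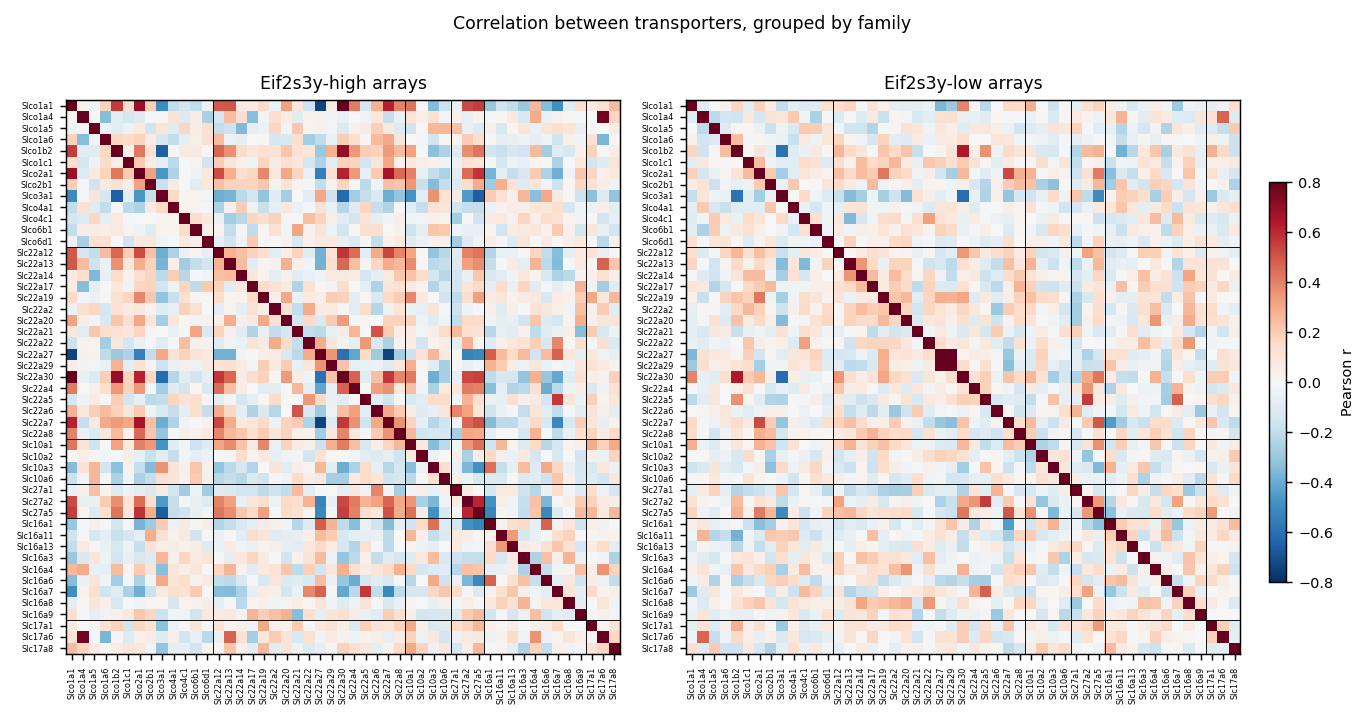
Pearson r between the 49 members in 155 Eif2s3y-high arrays (left) and 156 Eif2s3y-low arrays (right), red for positive and blue for negative, with colours at full strength from 0.8 in size and black lines between families. Rows of Slco1a1, Slco1b2, Slco2a1, Slc22a30, Slc22a7, Slc27a2 and Slc27a5 share red cells across families at left, with Slco3a1 and Slc22a27 in blue, and 90 pairs at left against 26 at right reach 0.3.

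The strongest pair in Eif2s3y-high arrays joined 2 families on different chromosomes, Slco1a1 on chromosome 6 and Slc22a30, an anion transporter of the chromosome 19 cluster. Slc22a30 ran from -0.242 through 0.0261 to 0.282 in Eif2s3y-high arrays and from -0.250 through -0.0421 to 0.144 in Eif2s3y-low arrays. Its r with Slco1a1 was 0.84 (95% interval 0.79 to 0.88, rho 0.85, n = 155) in Eif2s3y-high arrays, and 0.83 without the 2 arrays farthest from the median of Slc22a30. In Eif2s3y-low arrays r was 0.39 (0.25 to 0.52, rho 0.37, n = 155). Both passed limma's test over all genes, with adjusted p of 8.36e-40 and 0.000160. Among animals with F2 numbers up to 186 and above it, r was 0.86 and 0.84 in Eif2s3y-high and 0.32 and 0.45 in Eif2s3y-low arrays.

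Slc22a30 also followed Slco1b2, the mouse counterpart of the human hepatic uptake carriers OATP1B1 and OATP1B3, with r of 0.70 (rho 0.67) in Eif2s3y-high and 0.64 (rho 0.65) in Eif2s3y-low arrays. Slco1a1 and Slco1b2, from the same cluster, had r of 0.56 and 0.17. Slc22a7 followed Slco2a1, a prostaglandin carrier, at 0.66 and 0.53, and Slc27a5 at 0.51 and 0.50. The value with Slc27a5 turned to -0.00609 and -0.192 with 5 principal components removed. Slc22a12, a urate carrier of kidney, followed Slc22a30 at 0.57 and 0.35. The ergothioneine carrier Slc22a4 followed Slc27a2, a very long chain fatty acid carrier and synthetase, at 0.41 and 0.35.

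Slco3a1, a broadly expressed Slco carrier, ran against this group. Its r was -0.66 and -0.51 with Slc27a5, -0.65 and -0.59 with Slco1b2, -0.62 and -0.61 with Slc22a30, and -0.39 and -0.31 with Slc22a7 in Eif2s3y-high and Eif2s3y-low arrays. The last value turned to 0.214 with 5 components removed. Over all settings that were run, the weakest Eif2s3y-high values were -0.12 with Slc27a5, -0.15 with Slco1b2, -0.08 with Slc22a30 and -0.02 with Slc22a7. In Eif2s3y-low arrays the weakest were -0.15 with Slc27a5, -0.29 with Slco1b2 and -0.31 with Slc22a30. Slc16a1 ran against Slc27a5 (-0.52 and -0.33), Slc22a7 (-0.34 and -0.45) and Slco2a1 (-0.37 and -0.33). Slc10a3 ran against Slc27a5 (-0.48 and -0.35) and Slco2b1 (-0.35 and -0.33). With 5 components removed 2 of these turned sign in Eif2s3y-high arrays, Slc16a1 with Slco2a1 (0.0190) and Slc10a3 with Slco2b1 (0.0421). Others came close to 0 in some setting. The weakest Eif2s3y-high and Eif2s3y-low values of Slc16a1 were -0.0149 and -0.02 with Slc22a7, and -0.294 and -0.0167 with Slc27a5. Those of Slc10a3 with Slc27a5 were -0.144 and -0.164. In Eif2s3y-low arrays Slc16a1 with Slco2a1 fell to -0.111 and Slc10a3 with Slco2b1 to -0.0985.

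Slc22a27 was opposed to Slco1a1 (-0.73 and -0.36) and to Slc22a7 (-0.74 and -0.30). The value with Slc22a7 in Eif2s3y-low arrays was uneven: -0.54 among F2 numbers up to 186, -0.03 above it, and -0.18 without the 2 arrays farthest from the median of Slc22a27. With Slc22a29 it had r of 0.35 (0.20 to 0.48, n = 154) in Eif2s3y-high arrays and 0.86 (0.82 to 0.90, n = 156) in Eif2s3y-low arrays. Slc22a27 and Slc22a30, 3 genes apart, had -0.60 (rho -0.62) in Eif2s3y-high arrays and 0.03 in Eif2s3y-low arrays. The first had a permutation p of 1e-05, the smallest that 100000 resamples allow, and 2.46e-05 after adjustment over 32 tests. The second had an adjusted permutation p of 0.740. The cluster holds close relatives, and how far the probes of these genes share targets was not tested.

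**Figure D4:**
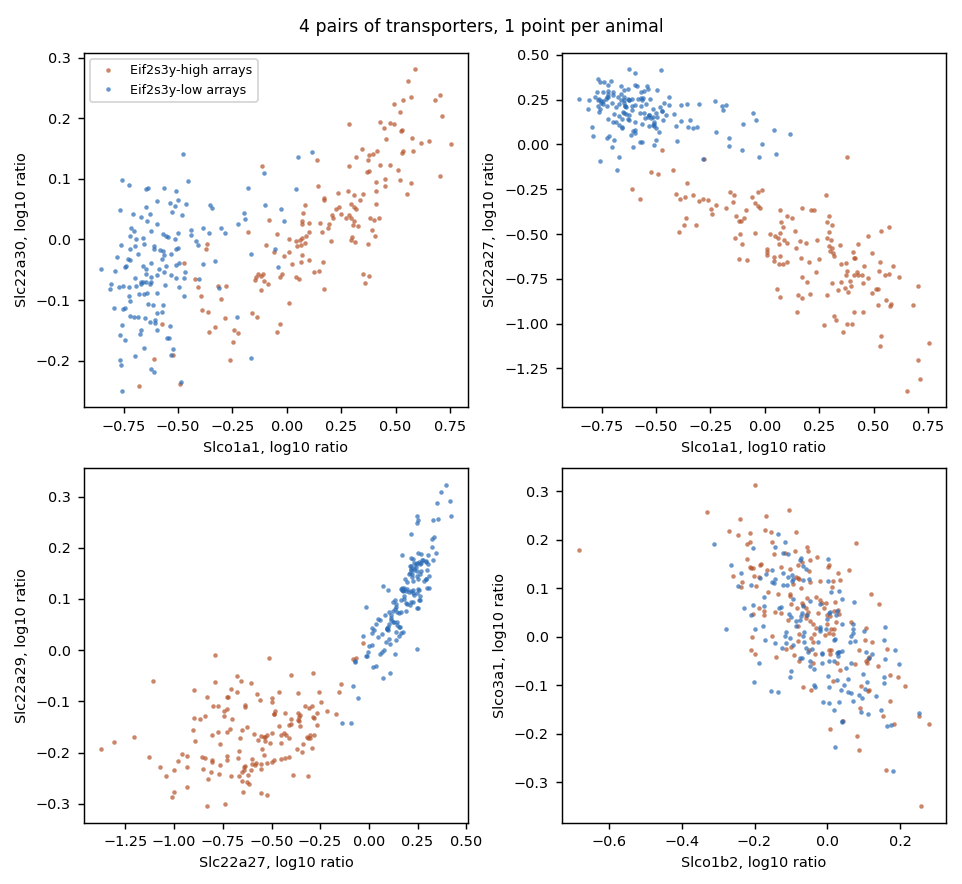
Log10 ratios of 4 pairs of members, 1 point per animal, with Eif2s3y-high arrays in brown and Eif2s3y-low arrays in blue. Slc22a30 climbs with Slco1a1 (r 0.84 and 0.39), Slc22a27 falls with it (-0.73 and -0.36), Slc22a29 climbs with Slc22a27 (0.35 and 0.86), and Slco3a1 runs against Slco1b2 (-0.65 and -0.59).

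Between adjacent genes r ran from -0.03 to 0.39 in Eif2s3y-high arrays and from -0.16 to 0.35 in Eif2s3y-low arrays. In the Slco1 cluster of chromosome 6 the adjacent pair Slco1a1 and Slco1a4 had r of 0.02 and -0.10, Slco1a5 and Slco1a6 had -0.03 and -0.11, and Slco1b2 and the thyroxine carrier Slco1c1 had 0.04 and 0.01. On chromosome 11 Slc16a11 and Slc16a13 had 0.34 and 0.16, and the carnitine carrier Slc22a5 had 0.01 and -0.13 with its neighbour Slc22a21. Slc22a21 had 0.27 and 0.09 with Slc22a4, on its other side. On chromosome 9 Slc22a13 and Slc22a14 had 0.25 and 0.35. On chromosome 19 Slc22a30 had 0.39 and 0.15 with Slc22a8 and 0.23 and 0.14 with Slc22a29. Probes of the same gene disagreed for 4 members: the probe used had r of 0.18 and -0.04 with one other probe of Slco1a4 and -0.004 and -0.09 with another, 0.09 and 0.20 for Slc16a9, 0.04 and -0.17 for Slc22a13 and 0.25 and 0.23 for Slco4c1. Values of these 4 genes depend on the probe. Slco1a4 with Slc17a6 had r of 0.77 and 0.47, and the first value was 0.29 without arrays on which a member lay 10-fold from its median.

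Relations with other genes were tested for 10 members by a limma fit of every gene on the member, adjusted over all genes. With 5 principal components removed, some counts of members called in Eif2s3y-high arrays were lower. They were 6 with Slco1a1, 8 with Slco1b2, 2 with Slc10a1, 9 with Slc27a2, 6 with Slc27a5 and 5 with Slc22a7. The share of all genes called under that setting is not given here. Whether the fall was particular to the members was therefore not tested. For the bile acid carriers, Slco1a1 in Eif2s3y-high arrays had 17 of 48 other members rising and 10 falling with it, in all 56.3%. Of all genes 24.8% rose and 22% fell, in all 46.9%. In Eif2s3y-low arrays 2 members rose and 3 fell, in all 10.4%, where 1.68% of all genes rose and 1.86% fell, in all 3.54%. The 5 were Slc22a30 and Slc10a1, which rose, and Slc22a27, Slc22a29 and Slc16a7, which fell. The gene with the highest r with Slco1a1 was Hsd3b5, a steroid reductase, at 0.92 (rho 0.92, adjusted p of 6.54e-62) in Eif2s3y-high and 0.74 (rho 0.57, adjusted p of 6.45e-25) in Eif2s3y-low arrays by limma. Cyp7b1, the oxysterol hydroxylase of the alternative bile acid pathway, stood at 0.82 and 0.58. The hydroxysteroid sulfotransferase Sult2a1 stood at 0.84 in Eif2s3y-high arrays and at -0.51 in Eif2s3y-low arrays, and both passed (adjusted p of 3.02e-39 and 1.87e-08 by limma). The difference between these slopes was not tested, and how far probes of Sult2a1 and its close relative Sult2a2 (0.18 and -0.61) share targets was not tested either.

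Slc10a1 had 17 members rising and 4 falling with it in Eif2s3y-high arrays, where 20.6% of all genes rose and 16.3% fell, in all 36.9%. In Eif2s3y-low arrays 9 rose and 1 fell, where 12.7% of all genes rose and 11.4% fell. Slco1b2 had 17 rising and 5 falling in Eif2s3y-high arrays, against 23.4% and 21.5% of all genes (in all 44.9%), and 10 and 5 in Eif2s3y-low arrays, against 19.2% and 19.5%. Serinc1, a serine incorporator, was among its closest genes at 0.79 and 0.79, and Itgb5, an integrin subunit, was opposed at -0.72 and -0.74. The closest genes to Slc10a1 included Pipox, a peroxisomal oxidase, at 0.60 and 0.53. Slco1a4 had 3 members rising and 3 falling in Eif2s3y-high arrays, against 5.15% and 4.8% of all genes (in all 9.95%). Without arrays on which a member lay 10-fold from its median 1 member was called. In Eif2s3y-low arrays 2 rose and 1 fell with Slco1a4, against 4.53% and 3.35% (in all 7.88%). With the most variable probe of each gene 13 members were called with Slco1a4 there, and its r with Slco1b2 was 0.27 and 0.47 in place of -0.08 and -0.16. The shares of all genes called with that probe, or without those arrays, are not given here. Whether these changes in count were particular to the members was therefore not tested.

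For the fatty acid and bile acid activating proteins, Slc27a5 had 18 members rising and 7 falling with it in Eif2s3y-high arrays, against 25.5% and 21.8% of all genes (in all 47.3%), and 10 and 3 in Eif2s3y-low arrays, against 19.2% and 17.6%. Pxmp2, a peroxisomal membrane protein, stood at 0.83 and 0.62 with it, and Rhbdf1, an inactive rhomboid protein, at -0.79 and -0.68. Slc27a2 had 17 rising and 6 falling in Eif2s3y-high arrays, against 21.1% and 19.3% (in all 40.4%), and 7 and 3 in Eif2s3y-low arrays, against 7.49% and 8.35%. Slc27a2 and Slc27a5 followed each other at 0.61 (rho 0.59) and 0.34 (rho 0.40). The remaining member, Slc27a1, a fatty acid transport protein of muscle and fat, had mean r of 0.0295 and -0.0578 with them.

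Of 20 measured genes of bile acid synthesis, conjugation and export, 11 rose and 5 fell with Slc27a5 in Eif2s3y-high arrays. Their median r was 0.311, against 0.0255 over all genes. In Eif2s3y-low arrays 7 rose and 2 fell, with a median of 0.0925 against 0.0232. Of all genes 25.5% rose and 21.8% fell with Slc27a5 in Eif2s3y-high arrays, and 19.2% and 17.6% in Eif2s3y-low arrays. The conjugating enzyme Baat had r of 0.56 and 0.39, the steroid 5-beta-reductase Akr1d1 0.65 and 0.34, the racemase Amacr 0.57 and 0.47 and the canalicular bile salt pump Abcb11 0.50 and 0.28. Those that fell in both sets were Abcc3, a basolateral export pump (-0.32 and -0.35), and the epoxide hydrolase Ephx1 (-0.47 and -0.63). With Slc10a1, 13 rose and 3 fell in Eif2s3y-high arrays (median r 0.233 against 0.0278 over all genes), and 5 rose and 2 fell in Eif2s3y-low arrays (0.117 against 0.0223). The shares of all genes were 20.6% and 16.3% in Eif2s3y-high arrays, and 12.7% and 11.4% in Eif2s3y-low arrays. Klb, a coreceptor for endocrine FGFs, was among those that rose with Slc10a1 in both, at 0.44 and 0.26. With Slco1a1, 13 rose and 4 fell in Eif2s3y-high arrays (0.329 against 0.0120), and 2 rose and 1 fell in Eif2s3y-low arrays (0.122 against 0.00445). The shares of all genes were 24.8% and 22% in Eif2s3y-high arrays, and 1.68% and 1.86% in Eif2s3y-low arrays.

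**Figure D5:**
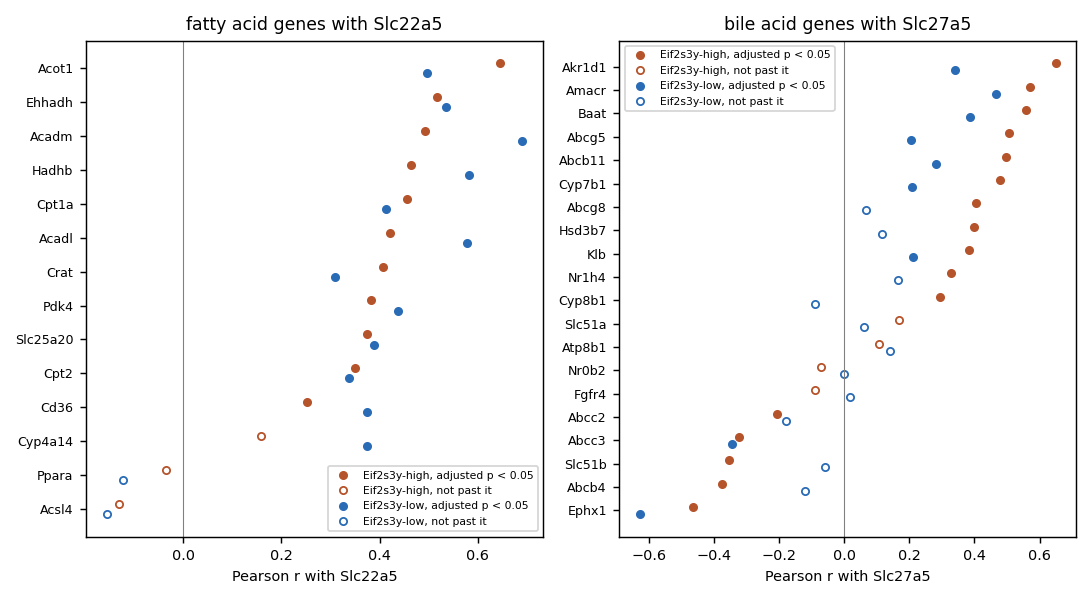
Pearson r over animals of genes of fatty acid activation and oxidation with Slc22a5 (left) and of bile acid genes with Slc27a5 (right), with Eif2s3y-high arrays in brown above Eif2s3y-low arrays in blue in each row, filled where limma's adjusted p passed 0.05 over all genes. With Slc22a5, 11 and 12 of 14 genes rose, against 9.2% and 12.6% of all genes. With Slc27a5, 11 and 7 of 20 rose, against 25.5% and 19.2% of all genes.

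Slc22a5, which brings carnitine into the cell for mitochondrial fatty acid import, had few other members with it and many genes of fatty acid oxidation. It ran from -0.266 through -0.0657 to 0.142 in Eif2s3y-high arrays and from -0.140 through 0.0262 to 0.235 in Eif2s3y-low arrays. Of other members 3 rose and 1 fell with it in Eif2s3y-high arrays, where 9.2% of all genes rose and 8.8% fell. In Eif2s3y-low arrays 4 rose and 4 fell, where 12.6% and 12.9% did. The pyruvate and ketone body carrier Slc16a7 rose with it in both sets, at 0.56 (adjusted p of 5.07e-11 by limma) and 0.48 (2.19e-08), and so did Slc27a2, at 0.27 and 0.56.

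Of 14 measured genes of fatty acid activation and oxidation 11 rose and 0 fell with Slc22a5 in Eif2s3y-high arrays. In Eif2s3y-low arrays 12 rose and 0 fell. Of all genes 9.2% rose and 8.8% fell with Slc22a5 in Eif2s3y-high arrays, and 12.6% and 12.9% in Eif2s3y-low arrays. The median r of the list was 0.395 and 0.401, against -0.00716 and -0.00919 over all genes. The medium chain dehydrogenase Acadm had r of 0.49 and 0.69, the thioesterase Acot1 0.65 and 0.50, the peroxisomal enzyme Ehhadh 0.52 and 0.54, and the carnitine palmitoyltransferase Cpt1a 0.46 and 0.41. Ppara, a regulator of this pathway, had r of -0.04 and -0.12, and neither passed (adjusted permutation p of 0.720 and 0.159 over 32 pair tests). Of 9 genes of monocarboxylate use and gluconeogenesis 7 and 4 rose with Slc22a5 and 0 fell in either set, among them Mpc1, a subunit of the mitochondrial pyruvate carrier, at 0.55 and 0.54. The highest r with Slc22a5 belonged to HSDL2, a peroxisomal dehydrogenase, at 0.71 and 0.73.

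Slc22a7, the sinusoidal anion carrier, had mostly negative r with these genes. In Eif2s3y-high arrays 1 of the 14 rose and 8 fell with it, and in Eif2s3y-low arrays 0 rose and 8 fell, with median r of -0.220 and -0.208, against 0.0200 and 0.0333 over all genes. The fatty acid translocase Cd36 stood at -0.63 and -0.66 with Slc22a7, against 0.25 and 0.37 with Slc22a5, and carnitine acetyltransferase Crat at -0.61 and -0.53, against 0.41 and 0.31. Of other members 16 rose and 10 fell with Slc22a7 in Eif2s3y-high arrays, against 22.7% and 19.8% of all genes (in all 42.5%). In Eif2s3y-low arrays 9 rose and 7 fell, against 19.4% and 16.6%. Its closest gene was Cyp7b1 in Eif2s3y-high arrays (0.77, and 0.28 in Eif2s3y-low arrays) and the inter-alpha-trypsin inhibitor chain Itih3 in Eif2s3y-low arrays (0.85). Mest, an imprinted hydrolase-like gene, was opposed at -0.69 and -0.78.

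Slc16a1 had 5 members rising and 10 falling with it in Eif2s3y-high arrays, against 15.1% and 15.6% of all genes, and 5 and 7 in Eif2s3y-low arrays, against 12.9% and 12.9%. Of 9 measured genes of monocarboxylate use and gluconeogenesis 1 rose and 4 fell with it in Eif2s3y-high arrays and 3 rose and 3 fell in Eif2s3y-low arrays, with median r of 0.0485 and 0.129, against -0.0162 and -0.0153 over all genes. The pyruvate dehydrogenase subunit Pdha1 rose with it at 0.36 and 0.40. The gluconeogenic enzyme Pck1 fell at -0.46 and -0.34, the tyrosine aminotransferase Tat at -0.51 and -0.40, and Ppara at -0.44 and -0.24. S100a10, an annexin partner, stood at 0.67 and 0.71 with Slc16a1. Slc17a1 had 3 members rising and 1 falling in Eif2s3y-high arrays, against 5.25% and 5.46% of all genes, and 2 and 1 in Eif2s3y-low arrays, against 2.71% and 4.03%. The antimicrobial peptide gene Leap2 (0.51 and 0.44) and the peroxisomal lyase Hacl1 (0.48 and 0.48) were among its closest genes in both sets.

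Of 15 measured regulators of transporter genes 8 rose and 1 fell with Slc27a5 in Eif2s3y-high arrays (median r 0.202 against 0.0255 over all genes). Of all genes 25.5% rose and 21.8% fell there. In Eif2s3y-low arrays 6 regulators rose and 1 fell (0.166 against 0.0232), where 19.2% of all genes rose and 17.6% fell. Hnf4a, a nuclear receptor that maintains hepatocyte identity, stood at 0.51 and 0.38 with Slc27a5, at 0.50 and 0.44 with Slc22a7 and at 0.40 and 0.38 with Slc10a1. Nfe2l2, the regulator of the oxidative stress response, stood at -0.46 and -0.28 with Slc27a5 and at -0.51 and -0.46 with Slc22a7. With Slc16a1 the same list had 1 gene rising and 6 falling in Eif2s3y-high arrays, where 15.1% of all genes rose and 15.6% fell. In Eif2s3y-low arrays it had 2 and 6, against 12.9% and 12.9%. The median r of the list with Slc16a1 was -0.0656 and -0.125, against -0.0162 and -0.0153 over all genes, and Nfe2l2 stood at 0.42 and 0.23.

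Pairs of partners chosen for their shared transport or metabolism were tested by permutation, with adjustment over 32 tests on 16 measured pairs. In Eif2s3y-high arrays 12 passed, 9 of them positive, and in Eif2s3y-low arrays 10 passed, 7 of them positive. The pairs were chosen with earlier results of these data known, so these p-values do not test pairs fixed beforehand. Passing was also common among other genes. By limma the share of all genes called in Eif2s3y-high arrays ran from 9.95% with Slco1a4 to 47.3% with Slc27a5. Slc10a1 rose with Slc27a5 at 0.44 and 0.37 (rho 0.44 and 0.29) and with Abcb11 at 0.31 and 0.38 (rho 0.29 and 0.34). Slc10a1 and Slco1a1 had 0.43 and 0.29, while Slc10a1 and Slco1b2 had 0.32 and 0.09, the last not past the test (adjusted permutation p of 0.289). With 5 components removed, r of Slc10a1 in Eif2s3y-high arrays turned to -0.0514 with Slc27a5 and to -0.0786 with Slco1b2. The prostaglandin carriers Slco2a1 and Slco3a1 had r of -0.47 and -0.27, and both turned positive with 5 components removed (0.150 and 0.251). The renal anion carriers Slc22a6 and Slc22a8 had 0.20 and -0.16, and the second did not pass (adjusted permutation p of 0.0650).

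Markers of liver cell types moved with several of these members, and their part in the results was not tested. A score of 5 stellate cell and matrix genes (Col1a1, Lum, Acta2, Lox and Dcn of 7 listed) had r of 0.3 or more in size with 12 of 49 members in Eif2s3y-high arrays, against 22.1% of all genes, and with 6 of 49 in Eif2s3y-low arrays, against 19.5%. It stood at -0.52 and -0.41 with Slc27a5, at -0.43 and -0.55 with Slc22a7, at 0.56 and 0.41 with Slc10a3 and at 0.44 and 0.38 with Slc16a1. A score of 4 hepatocyte genes (Ttr, Tat, Ass1 and Serpina1a) reached this size with 14 members in Eif2s3y-high arrays, against 20.2%, and with 7 in Eif2s3y-low arrays, against 11.4%. It stood at 0.49 and 0.27 with Slco1a1, at 0.46 and 0.38 with Slc22a30 and at 0.55 and 0.42 with Slc27a5. Its 4 genes had a mean r among themselves of only 0.263 and 0.144, so the score is a loose measure of hepatocyte content. A cholangiocyte score reached r of 0.3 in size with 9 members and 0 members, against 12.4% and 2.48% of all genes. Macrophage and endothelial scores reached it with 4 and 5 members in Eif2s3y-high arrays, against 8.92% and 5.4% of all genes, and with 4 and 4 in Eif2s3y-low arrays, against 8.4% and 6.12%. The mean log10 ratio of the matrix genes ran from -0.274 to 0.278 in Eif2s3y-high and from -0.307 to 0.159 in Eif2s3y-low arrays, and that of the hepatocyte genes from -0.237 to 0.131 and from -0.414 to 0.322.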

How the data were processed

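Liver total RNA of 311 animals was measured on 2-color arrays against a common pool. Each deposited value is a log10 ratio, with limits of -2 and 2; how the authors normalized it is not given in the sources used here. Scale and direction were checked from how gene means change with gene variances, a slope of -1.45, against -1.15 for a log10 ratio of animal over pool, 1.15 for the reverse and -0.347 for log2. Values were used as deposited. Where title and source name disagreed on an F2 number (1 animal), the title was followed; descriptions name 330 mice. Arrays have no counts, and the number of animals limits precision. No pair of arrays was identical. The p-values test whether a pair of transcripts varied together over animals, with the animal as the unit.

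Probes were named from the platform table, with symbols updated through RefSeq (GRCm38.p6); 13645 of 23388 probes named 1 gene. Intervals of spread come from 1000 resamples of the arrays. Gene relations were fitted with limma 3.58.1 in R 4.3.3 on log2 ratios, with Benjamini-Hochberg adjustment over 11386 genes at 0.05; r and rho of fixed pairs were tested by two-sided permutation (100000 resamples), adjusting over 32 tests. Shapes were compared with scipy 1.17.1 and promoters aligned with Biopython 1.88. Both methods were tested on simulated data. The named genes are members; genes of fixed lists and pairs; and the genes closest and most opposed to 10 members. Members, lists and pairs were chosen with earlier results of these data known. Alternatives were centring, other probe and array filters, F2 number ranges, removal of 5 components, other thresholds and other statistics. Of 25 fixed pairs 9 were not analysed here.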

Additional observations from a re-analysis of the deposited data

How the results depend on the processing

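Of 478 recomputed counts, family means and medians, 380 stayed within 1.5 times the count or within the spread expected of the value, and a split at 0 on Eif2s3y or the platform's own symbols changed none. No mixture was called in any setting that was run. Counts of members called below stand without the share of all genes called in the same setting. Whether their changes were particular to the members was not tested. Causes of the changes below were not tested, except where fewer genes or arrays entered by construction. No paired analysis was possible because the series has 1 group and its F2 numbers pair no samples.

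Removing 5 principal components moved most. In Eif2s3y-high arrays the members called with Slc22a7, Slco1a1, Slco1b2, Slc10a1, Slc27a2 and Slc27a5 were then 5, 6, 8, 2, 9 and 6, the fixed pairs past the threshold 6, the members at 3 times the median SD 1, and the mean r of Slc22a, Slc10a, Slc17a and Slc27a 0.0180, -0.0243, 0.0536 and 0.137. In Eif2s3y-low arrays the members called with Slc22a7, Slc22a5, Slco1a4, Slc10a1, Slc16a1, Slc17a1, Slc27a2 and Slc27a5 were 6, 5, 1, 0, 6, 0, 6 and 1, the mean r of Slc22a and Slco 0.0188 and -0.000647, and the members' median SD multiple 1.22. Signs turned in Eif2s3y-high arrays for Slc10a1 with Slco1b2 (-0.0786) and Slc27a5 (-0.0514), Slc16a1 with Slc16a7 (-0.189), Slc22a5 with Ppara (0.220) and Slco2a1 with Slco3a1 (0.150), and for the last pair in Eif2s3y-low arrays (0.251). Of 52 other described pair values 42 kept their sign throughout and 10 turned sign, all under this setting. Those that turned in Eif2s3y-high arrays were Slc27a5 with Slco2a1 (-0.0289), Slc22a30 (-0.230) and Slc22a7 (-0.00609) and Slc22a12 with Slc27a2 (-0.0147). Slc10a3 with Slco2b1 (0.0421), Slc22a13 with Slco3a1 (0.0673) and Slc16a1 with Slco2a1 (0.0190) also turned there. In Eif2s3y-low arrays they were Slc27a5 with Slco2a1 (-0.0135) and Slc22a7 (-0.192) and Slc22a7 with Slco3a1 (0.214). Many values that kept their sign changed in size. Of the pair values and the SD multiples of Slco1a1, Slc22a27 and Slco6b1, 46 moved beyond their expected spread under this setting and 12 did not.

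Among F2 numbers up to 186, members called in Eif2s3y-high arrays were 13 with Slc10a1 and 0 with Slc17a1, and the mean r of Slc10a and Slc16a was -0.00422 and 0.0125. In Eif2s3y-low arrays those called with Slc22a7, Slc22a5, Slco1a1, Slco1a4, Slco1b2, Slc10a1, Slc16a1, Slc17a1, Slc27a2 and Slc27a5 were 9, 2, 0, 1, 6, 1, 7, 0, 2 and 8, the mean r of Slco and Slc10a 0.0109 and 0.0143, and 4 fixed pairs passed. Above 186, those called in Eif2s3y-high arrays with Slc22a7, Slc22a5, Slco1a4, Slc16a1 and Slc17a1 were 15, 2, 1, 6 and 2, the mean r of Slco, Slc10a and Slc16a 0.0165, -0.117 and 0.0889, and the median multiple 1.20. In Eif2s3y-low arrays those called with Slc22a7, Slc22a5, Slco1a4, Slco1b2, Slc10a1, Slc16a1 and Slc17a1 were 6, 5, 1, 7, 6, 5 and 0, the mean r of Slco -0.0224 and the median multiple 1.19. Each range holds fewer arrays.

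Probes on every array left 28 members. In Eif2s3y-high arrays those called with Slc22a7, Slc22a5, Slco1a1, Slco1b2 and Slc27a5 were 16, 1, 16, 14 and 16, the mean r of Slc22a, Slco, Slc10a and Slc27a 0.0906, 0.0563, -0.104 and 0.00194, the median multiple 1.29, and 1 member reached 3 times. In Eif2s3y-low arrays 2 were called with Slco1a1, 1 member reached 3 times, and the mean r of Slc22a, Slco, Slc10a, Slc16a and Slc27a was 0.0101, 0.00042, -0.118, 0.135 and -0.138. Probes on 50% of arrays gave Slc17a 0.0575 in Eif2s3y-high arrays. Centring each array gave Slc22a 0.0525 and 0.0287 in Eif2s3y-high and Eif2s3y-low arrays. The most variable probe per gene gave Slco 0.0172 and 0.00720, a median multiple of 1.29 in Eif2s3y-high arrays (1.285), 13 members with Slco1a4 in Eif2s3y-low arrays, and positive r of Slco1a4 with Slco1b2, 0.270 and 0.474.

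The median absolute deviation gave median multiples of 1.27 (1.265) and 1.18 and left 1 member at 3 times in Eif2s3y-low arrays, and a threshold of 2 gave 9 and 7 members. At an adjusted p under 0.01, members called with Slc22a7, Slc22a5, Slco1a1, Slco1a4, Slc10a1 and Slc16a1 in Eif2s3y-low arrays were 8, 4, 2, 1, 5 and 6. Without the 10 arrays of largest SD, and without arrays on which a member lay 10-fold from its median (chosen after seeing the data), the median multiple in Eif2s3y-high arrays was 1.268 and 1.273 and 1 member was called with Slco1a4 in each. With 155 and 156 arrays, the depth of signal over background could not be read from ratios.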
